A study of Mus musculus with 6 samples.

Results

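The GC-rich promoter peaks of KLF3 are the sites in the merged KLF3 peak list that were annotated to a promoter and whose sequence held at least 60% G+C. There were 2888 such peaks among 4263 promoter peaks (67.7%, 95% Wilson interval 66.3% to 69.1%) and among 14115 KLF3 peaks in all (20.5%). The other 1375 promoter peaks are called GC-poorer. The sites were mapped by chromatin immunoprecipitation followed by sequencing (ChIP-seq) with an anti-V5 antibody in Klf3-/- murine embryonic fibroblasts (MEFs) of strain C57BL/6. These cells lacked endogenous KLF3 and were rescued by a retrovirus with 1 of 3 V5-tagged constructs. KLF3 is the full-length protein. In ΔDL, 2 residues of the motif that contacts the corepressor CtBP are mutated. DBD keeps the zinc fingers and a putative nuclear localization signal and lacks the rest of the protein. Each construct was studied in a stable clonal line under puromycin selection, so the construct and the line cannot be told apart. Each construct had 2 replicates, every one with its own input. The files hold no expression values, and the cell type was not checked against its markers.

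Krüppel-like factors (KLFs) bind through zinc fingers near the C-terminus to CACCC boxes and to related GC boxes. KLF3 represses many of its targets, in part by bringing CtBP and the chromatin enzymes that travel with it. Many mammalian genes start in CpG islands, stretches rich in G+C and in CpG pairs, where GC boxes are frequent and where several KLF and Sp factors can bind the same sequence. GC-rich promoters are typical of genes that most cells use.

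The sequences of 10 of these peaks are printed to show what such a site looks like. Rc3h1 is a gene the study names, Usp12 and Pvrl3 were among the highest KLF3 peaks, Hexa, Psen2 and 4933407C03Rik were lowest for ΔDL relative to KLF3, G3bp1 and Fam196a were among the highest for ΔDL relative to KLF3, and Cfl1 and Tob2 were among the highest for DBD. Each is the plus strand of mm9, 5′ to 3′, in up to 150 bases close to the peak centre that hold no annotated exon. Capitals mark matches on either strand to the 4 forms of the KLF core. These are ACACCC and CCACCC, the CACCC forms, and ACGCCC and CCGCCC, the GC box forms.
Rc3h1 (chr1:162836341-162836490, 6 cores): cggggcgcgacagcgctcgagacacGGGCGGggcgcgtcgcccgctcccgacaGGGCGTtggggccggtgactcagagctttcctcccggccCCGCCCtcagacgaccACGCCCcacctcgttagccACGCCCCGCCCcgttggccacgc
Usp12 (chr5:147606583-147606732, 7 cores): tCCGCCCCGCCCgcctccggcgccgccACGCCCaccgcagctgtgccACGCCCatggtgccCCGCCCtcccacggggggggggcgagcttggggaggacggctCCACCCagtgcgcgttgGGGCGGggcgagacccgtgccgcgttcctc
Pvrl3 (chr16:46497339-46497488, 2 cores): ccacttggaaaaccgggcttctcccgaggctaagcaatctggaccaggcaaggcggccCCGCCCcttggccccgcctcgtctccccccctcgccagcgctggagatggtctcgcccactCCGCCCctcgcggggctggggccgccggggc
Hexa (chr9:59387256-59387405, 4 cores): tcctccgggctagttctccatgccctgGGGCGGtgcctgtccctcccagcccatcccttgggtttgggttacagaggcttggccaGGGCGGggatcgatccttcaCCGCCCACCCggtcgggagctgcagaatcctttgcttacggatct
Psen2 (chr1:182186432-182186581, 4 cores): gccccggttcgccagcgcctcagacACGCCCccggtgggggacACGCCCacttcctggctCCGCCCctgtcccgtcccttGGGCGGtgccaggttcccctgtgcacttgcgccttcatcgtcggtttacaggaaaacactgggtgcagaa
4933407C03Rik (chr8:119780386-119780535, 5 cores): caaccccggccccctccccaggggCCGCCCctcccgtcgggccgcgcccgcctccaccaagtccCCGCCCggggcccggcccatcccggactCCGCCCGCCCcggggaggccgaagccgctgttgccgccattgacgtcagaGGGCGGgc
G3bp1 (chr11:55283037-55283186, 0 cores): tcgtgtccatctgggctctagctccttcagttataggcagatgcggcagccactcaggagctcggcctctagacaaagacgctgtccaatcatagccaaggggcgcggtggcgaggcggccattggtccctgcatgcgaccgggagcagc
Fam196a (chr7:142130114-142130263, 0 cores): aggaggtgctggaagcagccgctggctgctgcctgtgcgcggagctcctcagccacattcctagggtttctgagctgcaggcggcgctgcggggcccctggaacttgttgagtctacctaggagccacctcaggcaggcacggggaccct
Cfl1 (chr19:5490335-5490484, 2 cores): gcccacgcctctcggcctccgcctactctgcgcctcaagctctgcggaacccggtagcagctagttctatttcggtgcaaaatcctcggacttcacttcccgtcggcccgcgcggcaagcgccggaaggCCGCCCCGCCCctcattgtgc
Tob2 (chr15:81688757-81688906, 3 cores): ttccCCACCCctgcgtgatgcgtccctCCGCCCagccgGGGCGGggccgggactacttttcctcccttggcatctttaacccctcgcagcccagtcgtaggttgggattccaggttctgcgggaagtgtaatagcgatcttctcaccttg
The Usp12 stretch held 7 cores, Rc3h1 held 6 and 4933407C03Rik held 5, whereas G3bp1 and Fam196a held none. The G3bp1 stretch has the letters CCAAT in both orientations, of the kind that the factor NF-Y recognizes.

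A KLF core lay in the central 200 bp of 2802 of the 2888 peaks (97.0%, Wilson interval 96.3% to 97.6%). The share was 88.8% at GC-poorer promoter peaks, 60.4% in windows of the same length at 22367 promoters of coding genes, and 52.5% in flanks 400 to 600 bp from the centre of the GC-rich peaks. GC-rich promoters without a KLF3 peak held a core in 85.6% of 5637 windows. Overlapping matches were each counted. The GC box form CCGCCC was the most frequent. It was found in 87.4% of GC-rich promoter peaks against 58.3% of GC-poorer ones, and in 70.8% of GC-rich promoters without a KLF3 peak. ACGCCC was found in 35.9% against 18.9% of GC-rich promoters without a peak, and CCACCC in 34.0% against 32.1%. ACACCC was found in 12.1% of the GC-rich peaks, 17.5% of the GC-poorer ones and 10.9% of all promoters. The core matches were densest at the peak centre, at 46.3 per 100 peaks in the 20 bp beside it, and were between 7.93 and 13.1 per 100 peaks in the bins more than 300 bp away on either side.

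**Figure D1:**
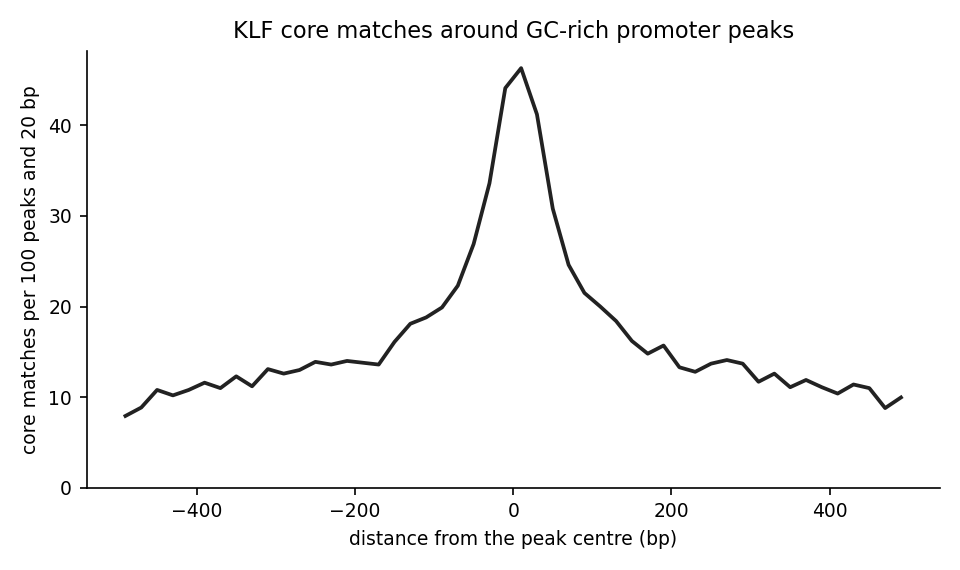
Matches of any of the 4 KLF core forms per 100 GC-rich promoter peaks in bins of 20 bp, on either strand, against the distance in bp from the peak centre (n = 2888 peaks). The line rises from 7.93 at its left end to 46.3 at the centre.

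Letters of other promoter factors were also counted in the central 200 bp. CCGGAAG, the core of ETS factors, was found in 17.1% of the GC-rich peaks and 17.0% of the GC-poorer ones. It was in 9.38% of all promoters, 11.8% of GC-rich promoters without a KLF3 peak and 2.6% of the flanks. GCGGGAA, bound by the cell cycle factors of the E2F family, was in 9.0%, against 4.15% of all promoters and 6.72% of GC-rich promoters without a KLF3 peak. CCAAT was in 25.7%, against 33.2% of the GC-poorer peaks and 29.5% of all promoters. GC-rich promoters without a KLF3 peak had it in 26.2% and the flanks in 18.0%. TATAAA, the TATA box, was in 1.87%, against 2.82% of GC-rich promoters without a KLF3 peak and 9.01% of all promoters. TGANTCA, the site of AP-1, was in 2.49% of the GC-rich and 8.07% of the GC-poorer peaks, and in 1.86% of GC-rich promoters without a KLF3 peak. These are matches of letters on either strand and were not tested as binding sites.

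The members were chosen by their promoter annotation, a window around the transcription start site that reaches further upstream than downstream, so that they lay near the start and mostly upstream follows from the rule. The median centre was 67 bp upstream of the start site, with quartiles at 138 and 22 bp upstream, and 49.3% of the peaks lay within 100 bp upstream. The median was 96 bp upstream for GC-poorer promoter peaks, of which 40.9% lay within 100 bp. Another coding gene started on the opposite strand within 1000 bp at 266 of the GC-rich peaks (9.21%) and at 9.96% of the GC-poorer ones, and for such pairs the peak is listed under 1 of both genes. The median G+C was 66.6%, and the median ratio of observed to expected CpG pairs was 0.831, against 55.9% and 0.681 at GC-poorer promoter peaks. The median PhastCons conservation score was 0.260 against 0.160. The peaks carried 2821 gene names, of which 66 had more than 1 peak.

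KLF3 occupied a larger share of GC-rich promoters than of others. A KLF3 peak of any kind lay within 500 bp at 2996 of 8633 coding gene promoters with at least 60% G+C (34.7%, Wilson interval 33.7% to 35.7%), against 1271 of 13734 with less (9.25%). The share rose from 2.68% under 50% G+C to 37.5% between 65% and 70%, and was 35.2% at 75% and over, where its interval from 32.3% to 38.3% overlapped those of the bins between 60% and 75%. Most GC-rich promoters, 5637 of the 8633, thus had no KLF3 peak.

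The height of a peak is the number of sequenced tags in 400 bp, which the authors took from both replicates together, normalized to the same total and deposited as log2 values. It therefore has no replicate error, and differences of heights are given as descriptions without a test. The members were chosen from the KLF3 list, so their KLF3 height had to be high. Values are in normalized tags, and a site at the genome average would have 15.1. KLF3 had a median height of 335 tags at the 2888 GC-rich promoter peaks (quartiles 242 and 479). ΔDL had a median of 176 (118 and 269), and that of DBD was 38.3 (25.1 and 54.9). GC-poorer promoter peaks had a KLF3 median of 298 tags, a ΔDL median of 246 and a DBD median of 53.1. The GC-rich peaks were thus somewhat higher for KLF3 and lower for both mutants.

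ΔDL was lower than KLF3 at most GC-rich promoter peaks. The median of the log2 difference in height was -0.91 (quartiles -1.41 and -0.50), and it was -0.29 at GC-poorer promoter peaks. The SD of the medians of the KLF3 replicates was 0.16 at the same sites. This SD is of log2 peak scores of the replicate lists and covers KLF3 alone. For ΔDL, replicate 2 minus replicate 1 had a median score difference of -0.73 at the 509 members called in both. Minus KLF3 replicates 1 and 2, ΔDL replicate 1 had medians of -0.04 and 0.22 at its 544 called members. ΔDL replicate 2 had -0.91 and -0.70 at its 1968. The medians of ΔDL replicate 1 were thus not clearly below 0 where called, but members it missed could not enter. Each of its tags was worth 56.6 in score and its peaks held at least 4 tags, so its scores had a floor. These medians cannot show how low ΔDL replicate 1 was at members whose KLF3 score lay near or below that floor. In height, ΔDL was at least 2-fold lower at 1313 GC-rich promoter peaks (45.5%, Wilson interval 43.7% to 47.3%) and at 181 GC-poorer ones (13.2%, 11.5% to 15.1%). Over the 22188 peaks of any construct this share was 14.9%, and over all KLF3 peaks it was 23.3%. ΔDL was at least 2-fold higher at 2 GC-rich promoter peaks, 8 of the 1375 GC-poorer ones and 1559 of all 14115 KLF3 peaks (11.0%). The share was 28.9% over the peaks of any construct, which include peaks called for ΔDL alone, as the members could not be. It was above KLF3 at all at 190 of the 2888. With heights scaled to equal medians over the 2334 peaks called for all 3 constructs, which lowers ΔDL by 1.06 and DBD by 0.42 on the log2 scale, the median ΔDL difference was -1.97 and 2731 peaks passed the 2-fold limit. The sign was the same on both scales, but the size rests on which scale is used.

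**Figure D2:**
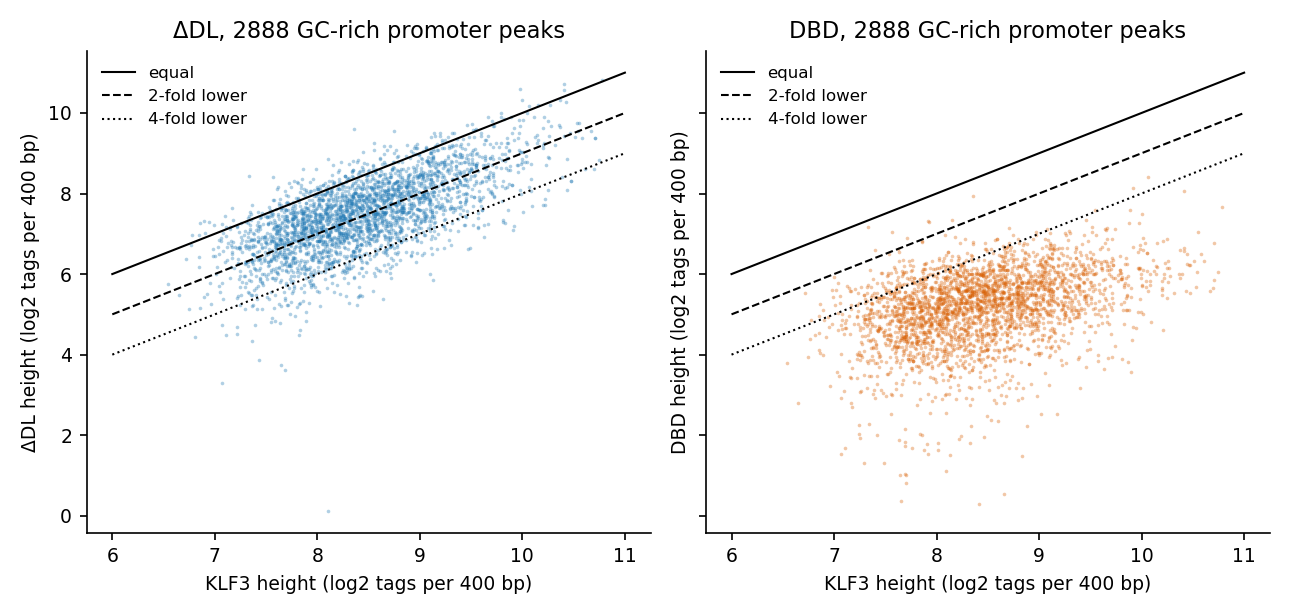
Height of ΔDL (left) and DBD (right) against the height of KLF3 at the 2888 GC-rich promoter peaks, each point 1 peak, both axes in log2 normalized tags per 400 bp with both replicates combined. Lines mark equal heights and 2-fold and 4-fold lower mutant heights; 190 peaks lie above the line of equal heights for ΔDL and none for DBD.

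The difference followed G+C step by step. The median ΔDL minus KLF3 difference was -0.04 at promoter peaks under 50% G+C and -0.18 and -0.40 in the bins up to 60%. It was then -0.64, -0.90 and -1.21 in bins of 5% up to 75%, and -1.50 above that. The share at least 2-fold lower rose from 9.66% in the lowest bin to 79.2% of the 231 peaks in the highest. Median KLF3 heights stayed between 309 and 350 tags over the 4 GC-rich bins, while those of ΔDL were 207, 179, 147 and 110 tags and those of DBD 42.8, 39.1, 33.0 and 27.5 tags. Within 10 bins of equal KLF3 height the difference between GC-rich and GC-poorer promoter peaks averaged -0.62 for ΔDL, as it did without bins.

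**Figure D3:**
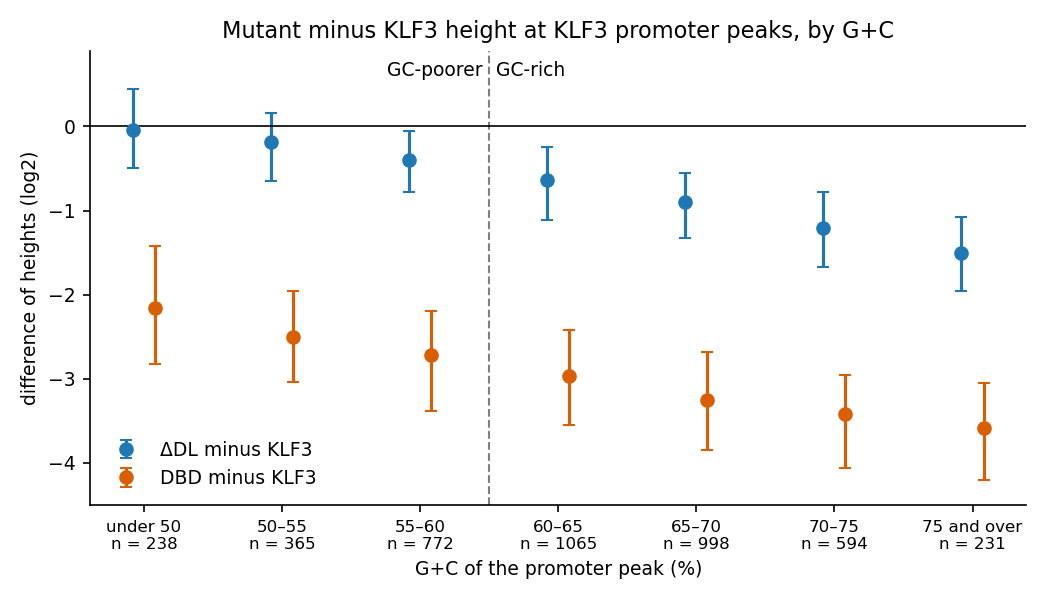
Median difference of heights from KLF3 (log2) for ΔDL and DBD at KLF3 promoter peaks in 7 bins of G+C, with bars from the lower to the upper quartile of the peaks and the number of peaks under each bin. The dashed line is the 60% limit; ΔDL goes from -0.04 in the lowest bin to -1.50 in the highest, and DBD from -2.16 to -3.58.

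The same difference was found outside promoters. At 534 GC-rich peaks in introns the median ΔDL minus KLF3 difference was -1.13, and at 314 GC-rich intergenic peaks it was -1.05, against -0.09 and 0.13 at GC-poorer peaks of those regions. A lower ΔDL height at GC-rich peaks was thus also measured outside promoters. Among the promoter members the median was -0.85 within 100 bp upstream of the start site, -0.95 from 100 to 200 bp upstream and -1.16 at the 251 peaks more than 300 bp upstream.

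The number of KLF cores went along with both KLF3 height and the ΔDL difference. The median KLF3 height was 230 tags at the 86 peaks without a core, 347 at those with 3 cores and 419 at the 225 with 6 or more. The median ΔDL height was 165 tags without a core and 164 with 6 or more. The ΔDL difference was accordingly -0.48, -0.92 and -1.37. G+C and the number of cores are linked, so both were split. Between 60% and 65% G+C the median difference was -0.32 at peaks with at most 1 core, -0.68 with 2 or 3 and -0.87 with 4 or more. At 75% G+C and over the values were -1.41, -1.41 and -1.63, of which the first rests on 19 peaks. Peaks with an ETS core had a median ΔDL difference of -0.67, those without one -0.97, with KLF3 medians of 335 tags in both and a median G+C of 65.8% against 67.1%. Peaks with CCAAT had -0.72 and those without -0.99, again with KLF3 medians of 335 tags in both and a median G+C of 66.1% against 67.1%. These groups were not matched on G+C.

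The replicate lists give the spread between replicates. Their scores are tags per 100 M, and the number of tags behind them was inferred from the worth of 1 tag. These totals are lower than the mapped reads listed for the libraries by the study, and the cause was not tested. KLF3 replicate 1 rested on 5.46 M tags and replicate 2 on 18.1 M. ΔDL replicates 1 and 2 rested on 1.77 M and 10.2 M, those of DBD on 7.81 M and 8.38 M. All members were called in both KLF3 replicates by construction, with a median of 13 tags in replicate 1 and 37 in replicate 2. ΔDL replicate 1, the list with the fewest tags, held 544 of the members (18.8%) and ΔDL replicate 2 held 1968 (68.1%). Both held 509 (17.6%, Wilson interval 16.3% to 19.1%) and neither held 885. The share in both was 28.9% of the GC-poorer promoter peaks and 34.0% of all KLF3 peaks. It rose with KLF3 height, from 4.16% in the lowest quartile of the members to 41.0% in the highest. Intervals on shares cover counting error only.

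Each replicate list was also searched for GC-rich promoter peaks of its own, with G+C computed over 400 bp of mm9. There were 3402 and 4934 in the KLF3 lists, 627 and 2763 in the ΔDL lists, and 37 and 47 in the DBD lists. Of the promoter peaks of a list they made up 63.4% and 66.7% in KLF3. In ΔDL they made up 49.4% and 53.2%, and in DBD 25.3% and 20.7%. These shares did not overlap between constructs, with 65.1% ± 2.32 (SD, n = 2) for KLF3, 51.3% ± 2.64 for ΔDL and 23.0% ± 3.28 for DBD. An exact permutation test of the KLF3 lists against the 4 mutant lists gave p = 0.13 (two-sided), and 0.33 after Benjamini-Hochberg adjustment over 9 tests. The unadjusted value is the smallest that this two-sided test can give with 2 lists against 4. Outside promoters KLF3 peaks had a median G+C of 42.6% and 47.9% in replicates 1 and 2. ΔDL peaks had 38.4% and 41.4%, and DBD peaks had 37.2% and 37.4%.

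**Figure D4:**
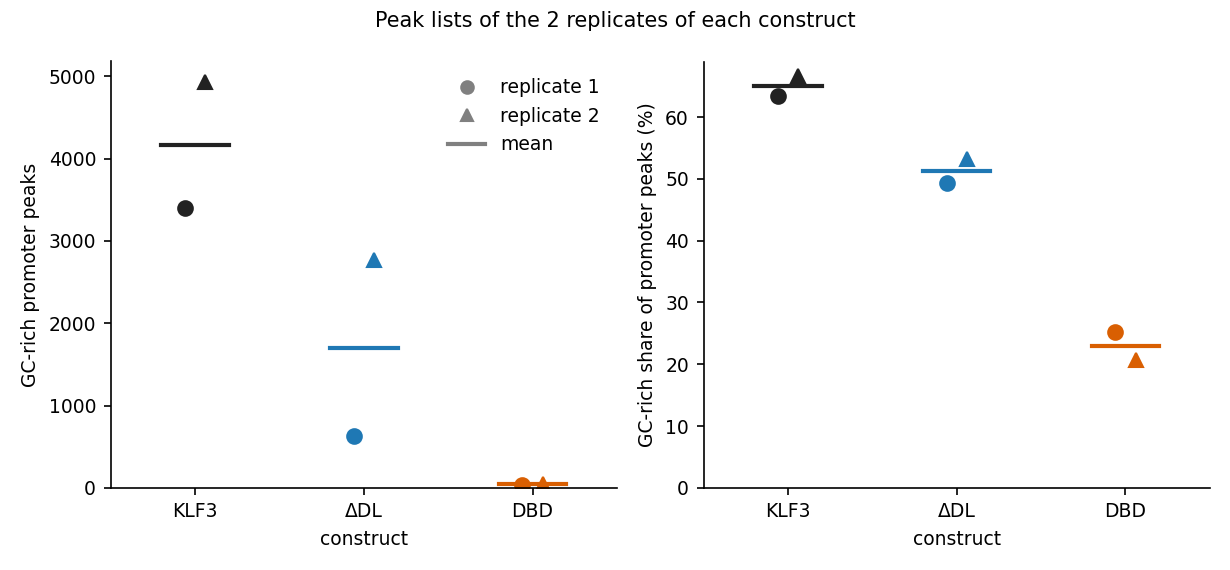
Number of GC-rich promoter peaks (left) and their share of the promoter peaks in percent (right) in the peak list of each replicate, with a horizontal line at the mean of each construct. Both KLF3 lists lie above all 4 mutant lists in both panels, from 3402 peaks and 63.4% upwards.

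Replicates of 1 construct also differed by G+C. KLF3 replicate 2 minus replicate 1 had a log2 score difference that was 0.23 higher at GC-rich than at GC-poorer promoter peaks, and for ΔDL the corresponding value was -0.05. For DBD it was 0.34, over 12 GC-rich and 35 GC-poorer peaks. For ΔDL minus KLF3 it was -0.18, -0.27, -0.40 and -0.57 over the 4 pairs of replicates, all below 0, at peaks called in the lists compared. The weakest of these is smaller than the shift between the KLF3 replicates. A G+C preference of the libraries themselves was not tested, since the input libraries were not analysed here.

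Peak scores could be tested at peaks called in all 4 lists of a pair of constructs. For ΔDL against KLF3, limma on log2 scores called 0 of 4795 peaks lower at an adjusted p under 0.05 (0%), and 0 higher. Without adjustment 6 peaks were lower at p under 0.05, 5 of them among the 509 GC-rich promoter peaks in the test, and 202 were higher, none of them members. The median score difference was -0.26 at those 509 and 0.97 over all 4795. At the 509 its sign rested on 1 replicate and its size on the scale, since it was 0.07 without ΔDL replicate 2 and -1.1 with scores centred on the median of each list. Peaks that ΔDL had lost could not enter, and the scores of ΔDL replicate 1 had the floor given above. Without ΔDL replicate 2, 1826 peaks were called higher and 2 lower, and both lower ones were members. The calls depended on the scale too: with centred scores, 433 peaks were called lower and 7 higher, and 183 of the lower ones were GC-rich promoter peaks.

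The highest GC-rich promoter peaks of KLF3 had between 1489 and 1758 tags. Ppp1r10, which encodes a nuclear targeting subunit of protein phosphatase 1, was highest. It had 1758 tags for KLF3 and 1808 for ΔDL, and scores of 1997 and 1156 in KLF3 replicates 1 and 2 against 1643 and 1182 in those of ΔDL. The replicate scores of the 2 constructs overlapped at this site. Usp12, a deubiquitinase gene, reached 1722 tags with KLF3 and only 455 with ΔDL and 66.7 with DBD. Its scores were 1228 and 1183 in the KLF3 replicates and 274 in ΔDL replicate 2, and no peak was called in ΔDL replicate 1. Lmnb1, which encodes lamin B1 of the nuclear lamina, had 1675 tags for KLF3 and 662 for ΔDL. Pvrl3, the gene of the adhesion protein nectin-3, had 1675 and 671, and its ΔDL scores of 680 and 352 lay below its KLF3 scores of 1374 and 962. Pdp1, a phosphatase gene that activates pyruvate dehydrogenase, had 1663 tags for KLF3 and 393 for ΔDL. Sept10 (a septin), Anxa5 (annexin A5), Shoc2 (a scaffold of Ras signalling), Itsn1 (an endocytic scaffold) and Vapa (a membrane contact protein of the endoplasmic reticulum) completed the highest 10. In these 5 ΔDL was lower, with log2 differences from -0.79 to -2.0. At 9 of the 10 ΔDL was below KLF3 in height, and the exception was Ppp1r10, which was below it too on the scaled heights (-1.02). The 10 were picked for a high KLF3 height. Over all 2888 members ΔDL was above KLF3 at 190, so this count does not set the 10 apart.

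The 6 largest differences in ΔDL, among peaks of at least 9 in log2 KLF3 height, were at Hnrpll, Hexa, 4933407C03Rik, Psen2, Glipr2 and Wrn. Hnrpll, a splicing regulator gene, had 560 tags for KLF3 and 58.1 for ΔDL (-3.27 on the log2 scale). Hexa, which encodes the alpha subunit of the lysosomal enzyme beta-hexosaminidase, had 549 and 63.6 (-3.11). Its KLF3 scores were 550 and 370, and it was called in neither ΔDL replicate. Psen2, the gene of presenilin-2, reached 719 tags with KLF3, 100 with ΔDL and 26.2 with DBD, and it too was called in neither ΔDL replicate. Wrn, a RecQ helicase gene, had 969 and 146 tags, with a ΔDL score of 87.9 in replicate 2. Glipr2 was the only 1 of the 6 with a peak in ΔDL replicate 1, at 5 tags. These sites held between 3 and 5 cores in their central 200 bp, apart from Psen2 with 6.

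The opposite pattern was rare. Msh3, a mismatch repair gene, reached 781 tags with ΔDL against 329 with KLF3 (1.25 higher on the log2 scale), and 247 with DBD. Its KLF3 scores were 513 and 149, so the KLF3 replicates differed by more than at the median member. Of the ΔDL replicates, it was called in replicate 2 alone, at a score of 635. Fam196a reached 345 tags with ΔDL against 161 with KLF3 (1.10 higher), and 143 with DBD, and was called in all 6 lists. Its KLF3 scores were 202 and 99.5 and its ΔDL scores 623 and 156, which overlapped, and its DBD scores were 141 and 107. Pmvk, which encodes phosphomevalonate kinase of cholesterol synthesis, was higher by 0.85 in ΔDL. Ptbp1, a splicing repressor gene, was higher by 0.80, G3bp1, a stress granule protein gene, by 0.76, and 2310067B10Rik by 0.75. On the scaled heights only Msh3 (0.19) and Fam196a (0.04) among these 6 stayed above KLF3. Msh3 and Fam196a held no core in the central 200 bp, G3bp1 and 2310067B10Rik held 1, Pmvk held 2 and Ptbp1 held 3.

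The zinc fingers alone gave little signal at GC-rich promoters. At 2880 of the 2888 peaks DBD was lower by at least 2-fold (99.7%, Wilson interval 99.5% to 99.9%). The median of the log2 difference from KLF3 was -3.21. The share was 96.0% at GC-poorer promoter peaks, 52.6% over the peaks of any construct and 79.2% over all KLF3 peaks. The median DBD height of 38.3 tags was above the 15.1 tags of uniform coverage. That level assumes tags spread evenly over the genome, and the inputs were not analysed here, so binding of DBD at these sites was not tested by it. DBD replicate 1 held 38 of the members, replicate 2 held 48, and both held 12 (0.416%, Wilson interval 0.238% to 0.725%), against 2.55% of the GC-poorer promoter peaks and 17.0% of all KLF3 peaks.

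Cfl1, which encodes the actin-severing protein cofilin, was the highest GC-rich promoter peak of DBD. It reached 340 tags with DBD, 1067 with KLF3 and 1160 with ΔDL, and had DBD scores of 243 and 298 against KLF3 scores of 1209 and 901. Ass1, the argininosuccinate synthase gene of the urea cycle, had 280 tags for DBD, Tob2, an antiproliferative gene that recruits deadenylases, had 269, and Msh3 had 247. Ppp1r10 had 204 and Efha1 had 194. Msh3 was called in DBD replicate 1 alone, at a score of 307, and the others were called in both DBD replicates. ΔDL was near or above KLF3 at 5 of these 6 peaks, with log2 differences from 0.04 to 1.25, and was lower at Ass1 (-0.60). On the scaled heights Msh3 alone of the 6 stayed above KLF3, and Cfl1 (-0.94), Tob2 (-0.89), Ppp1r10 (-1.02) and Efha1 (-1.02) were below it.

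At peaks called in all 4 lists of KLF3 and DBD, limma with Benjamini-Hochberg adjustment over 2399 peaks called 25 lower for DBD (1.04%) and 0 higher (65 and 1 at an unadjusted p under 0.05). Of the 12 GC-rich promoter peaks in that test, 8 were lower. Ppp1r10 differed by -3.05 on the log2 scale (SE 0.61, the same at each member tested, adjusted p = 3e-04), with DBD scores of 166 and 203. Ncoa3, a nuclear receptor coactivator gene, differed by -3.04 with the same adjusted p, and Tob2 by -2.82 (adjusted p = 9e-04). Psap (prosaposin) differed by -2.81 and 1200016B10Rik by -2.70. Without DBD replicate 1 or without DBD replicate 2, limma called 0 peaks after adjustment, with 30 and 37 lower at an unadjusted p under 0.05. Without KLF3 replicate 1 it called 65 lower and 1027 higher, and without KLF3 replicate 2 it called 96 lower. Fam196a differed by -0.20 and did not pass (adjusted p = 1).

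Gene lists fixed by name patterns were used to see at which kinds of genes the GC-rich peaks lay. A GC-rich promoter peak of KLF3 lay at 2730 of 22225 coding gene names (12.3%). The share was highest for mRNA decay genes, at 14 of 36 (38.9%, Wilson interval 24.8% to 55.1%), for CtBP and corepressor genes, at 8 of 21 (38.1%, 20.8% to 59.1%), and for G1 and S phase cell cycle genes, at 14 of 39 (35.9%, 22.7% to 51.6%). Actomyosin and adhesion genes had 24 of 69 (34.8%), genes of the TGF-beta and BMP pathways 10 of 29 (34.5%) and translation initiation and elongation genes 20 of 66 (30.3%). The lowest shares were those of proteasome genes at 3 of 50 (6.00%), mitochondrial ribosomal protein genes at 7 of 77 (9.09%), Zfp zinc finger genes at 34 of 367 (9.26%) and cytosolic ribosomal protein genes at 8 of 82 (9.76%). GC-rich promoters were themselves more frequent in some of these lists, at 28 of the 36 mRNA decay genes and 23 of the 82 cytosolic ribosomal protein genes, against 8574 of all coding gene names. Zfp genes had 120 of 367. Only GC-rich peaks were counted, so the ranking follows in part from these numbers. Relative to GC-rich promoters, cytosolic ribosomal protein genes were not low, with 8 genes with a peak beside 23, against 2730 beside 8574 over all. The lists were not tested against each other.

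**Figure D5:**
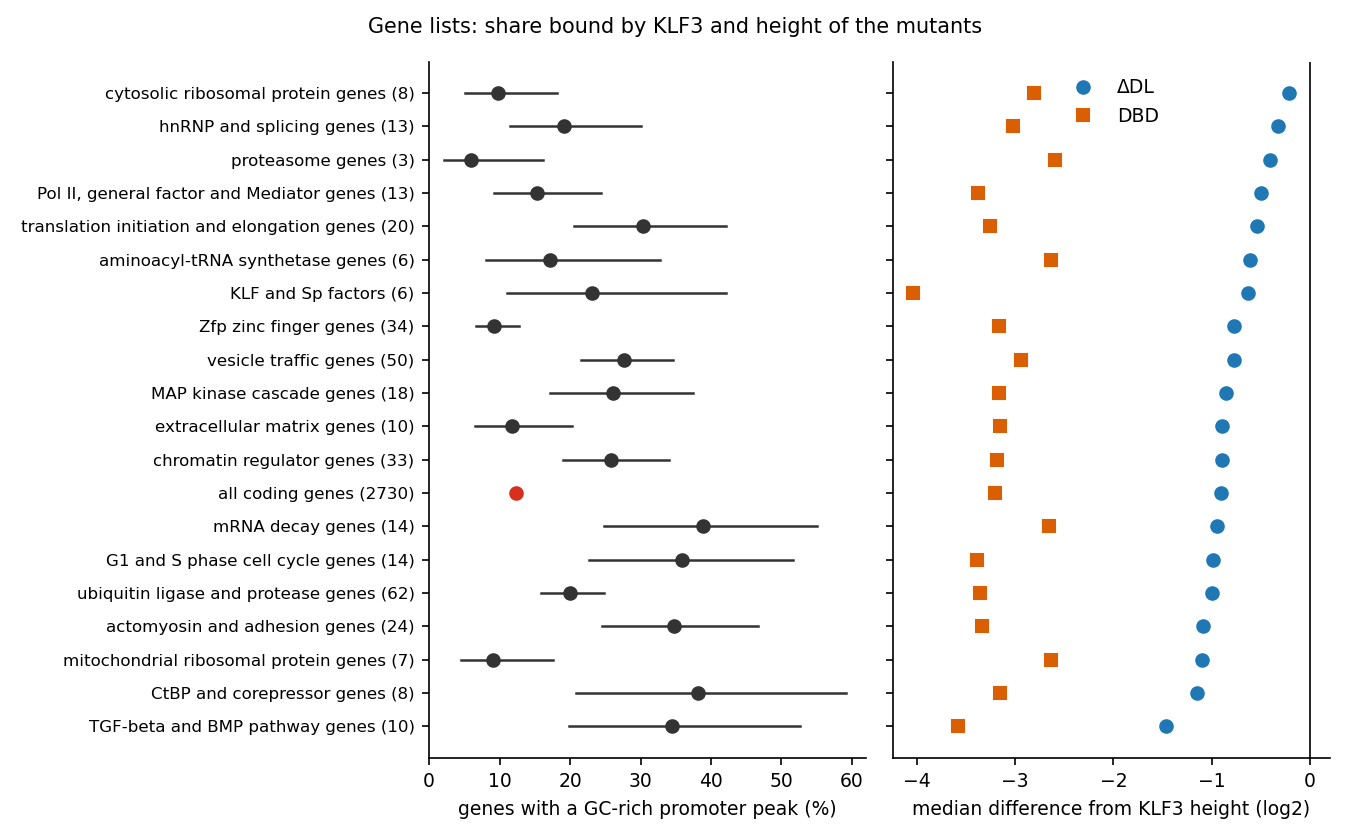
Left, share of the genes of each list with a GC-rich promoter peak of KLF3, in percent with 95% Wilson intervals; right, median difference of ΔDL and DBD from KLF3 height (log2) over those genes, with their number in parentheses. The ΔDL median goes from -0.21 for cytosolic ribosomal protein genes to -1.46 for TGF-beta and BMP pathway genes, with -0.91 over all coding genes.

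Over the 2730 coding genes with such a peak, ΔDL was at least 2-fold lower at 45.2%, with a median difference of -0.91. TGF-beta and BMP pathway genes had the lowest median, at -1.46, and 7 of their 10 peaks passed the 2-fold limit. Tgif2, a corepressor of SMAD signalling, had 399 tags for KLF3 and 41.9 for ΔDL (-3.25), and Skil, another repressor of SMAD signalling, had 391 and 133 (-1.55). Smad6, an inhibitory SMAD gene, had 843 and 315. CtBP and corepressor genes had a median of -1.15, with 4 of 8 past the limit. Ctbp1 itself had 380 tags for KLF3 and 141 for ΔDL, and Rcor3 had 380 and 119, whereas Wiz had 350 and 393 (-0.89 on the scaled heights). Among G1 and S phase genes 7 of 14 passed. E2f1, which drives S phase genes, had 576 and 98.4 tags (-2.55), Cdkn2a, the locus of the p16 and p19 inhibitors, had 419 and 101 (-2.05), and Cdk4 had 671 and 501 (-0.42).

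Other lists had a ΔDL median nearer to 0 than that of all coding genes. Cytosolic ribosomal protein genes had a median ΔDL difference of -0.21 over 8 peaks, with 2 of them past the 2-fold limit. Rps20 had 541 and 431 tags for KLF3 and ΔDL (-0.33), and Rps27l had 434 and 254 (-0.77). Rps19 had 564 tags for KLF3 and 719 for ΔDL, and Rpl12 had 402 and 501, but on the scaled heights ΔDL was below KLF3 at both (-0.71 and -0.74). The replicate scores of Rps19 overlapped, at 531 and 238 for KLF3 and 283 and 322 for ΔDL. Translation initiation and elongation genes had a median of -0.54, with 3 of 20 past the limit. Eef1a1, the major elongation factor gene, had 676 and 596 tags, whereas Eif4ebp1, a translation repressor gene, had 613 and 228. The hnRNP and splicing genes had a median of -0.32 with 3 of 13 past the limit. Those past it were Hnrpll (-3.27), Hnrnpf with 910 and 282 tags (-1.69) and Hnrnpu with 455 and 169 (-1.43). Hnrnpd, with 838 and 461 tags (-0.86), was not past it. Mitochondrial ribosomal protein genes were not among these, with a median of -1.10 over 7 peaks, 4 of them past the limit. ΔDL was not at least 2-fold higher at any gene of the 19 lists, and DBD was at least 2-fold lower at all but 1 proteasome and 1 Zfp gene of them. With 3 to 62 peaks in each list, these medians are descriptions.

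A GC-rich promoter peak lay at 6 of 26 genes of the KLF and Sp family (23.1%, Wilson interval 11.0% to 42.1%). The share over all coding gene names was 12.3%, and KLF3 peaks of other kinds at these genes were not counted. GC-rich promoters were found at 16 of these 26 genes, against 8574 of 22225 coding gene names. The higher share thus follows in part from promoter G+C. The peak at the promoter of Klf3 itself reached 1136 tags with KLF3, 639 with ΔDL and 72.0 with DBD. Klf11 had 1342 tags for KLF3 and 338 for ΔDL (-1.99), and its scores were 1228 and 741 for KLF3 against 396 and 147 for ΔDL. The limma test gave it an adjusted p of 0.46. Sp4 had 750 and 315 tags, and Sp2 had 437 and 545. Among chromatin regulator genes, 33 of 128 had a GC-rich promoter peak (25.8%), and 84 of the 128 had a GC-rich promoter. Mll1, which encodes a histone methyltransferase, had 1314 tags for KLF3 and 832 for ΔDL. Ubiquitin ligase and protease genes supplied the largest number, 62 of 310, of which 155 had a GC-rich promoter. Their median ΔDL difference was -1.0. Usp31 had 1361 tags for KLF3, 1675 for ΔDL and ΔDL scores of 1869 and 1260 against 1778 and 1078 for KLF3. On the scaled heights ΔDL was below KLF3 at Usp31 (-0.76) and at Sp2 (-0.74). Itgb1, the beta-1 integrin gene, had 843 and 247 tags, Actn1, an alpha-actinin gene, had 929 and 385, and Dusp1, a MAP kinase phosphatase gene, had 798 and 648.

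Of the 12 genes that the study named for its ChIP-seq results, 6 had a GC-rich promoter peak. Apart from Lgals3, which the study lists as a target identified before, they were chosen by the study on these samples. The values of all 6 are descriptions. Rc3h1, the gene of the RNA-binding protein Roquin-1 that destabilizes mRNA, reached 1418 tags with KLF3, 317 with ΔDL (-2.16) and 74.5 with DBD. Its scores were 1319 and 934 for KLF3 and 510 and 156 for ΔDL, which did not overlap, and the limma test gave an adjusted p of 0.46. Zfp36l2, whose protein binds AU-rich elements, had 481, 86.8 and 66.7 tags for KLF3, ΔDL and DBD and was called in neither mutant. Fez2 had 662 and 165 tags for KLF3 and ΔDL (-2.0). Pqlc3 had 820 and 468 (-0.81), and Lgals3, the galectin-3 gene, had 413 and 232 (-0.83). This Lgals3 peak lay at -19 bp from the start site, whereas the study labels its ChIP primers for Lgals3 as lying kilobases upstream. Stard4, which encodes a cholesterol transfer protein, had 605 and 443 (-0.45).

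The limit of 60% G+C cuts through a continuous range. The highest KLF3 peaks just inside it, at 60.1% G+C, were at Slc44a2, with 929 tags for KLF3 and 194 for ΔDL, and at Izumo4, with 820 and 600. Those just outside, at 59.9%, were at A230028O05Rik, with 1314 and 362 tags, and at Plec, with 1261 and 639.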

How the data were processed

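ChIP-seq peak lists of 3 constructs with 2 replicates each were used. The authors aligned reads to mm9 with Bowtie2 2.0.0 and called and annotated peaks with HOMER 4.1 on each replicate against its input, per the paper's methods and the submitters' processing notes. The deposited peak scores are a signal, tags in the peak per 100 M tags. The heights are log2 values of tags in 400 bp, which the authors counted over both replicates and scaled to a common total. G+C is a fraction computed by the authors, and the share of CpG and the PhastCons conservation score are deposited by the authors too. Inputs entered only through the authors' peak calling.

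A KLF3 peak took the heights of the row of the table of all peaks on the same interval (2481 members) or overlapping by at least 200 bp (407). The members and lists were chosen with earlier results of these data known. Peak lists were matched at 1 bp. Scores were tested with limma 3.58.1 in R 4.3.3 on log2 values without a pseudocount, and list counts with exact permutation tests. The limma step, the motif search and the overlaps were tested on simulated data. The replicates are labelled biological and share 1 line per construct, so p-values measure only the spread between these samples. limma gave every member tested the same SE within a comparison, 0.87 for ΔDL and 0.61 for DBD. Its p-values thus rest on a spread shared over peaks, not on that at each site. Gene names follow the authors' annotation, with 10 names turned into dates restored from their accession. Promoters of coding genes and exons came from GENCODE on mm9. The named peaks were those at genes the study names, the 10 highest for KLF3, the 6 lowest and 6 highest for ΔDL minus KLF3 (with a log2 height of at least 9 in KLF3 or 8 in ΔDL), the 6 highest for DBD, up to 4 per gene list by KLF3 height, 2 on each side of the G+C limit, and up to 5 that passed limma. Python 3.11.15, pandas 2.3.3 and scipy 1.17.1 were used.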

Additional observations from a re-analysis of the deposited data

How the results depend on the processing

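Every median of height differences at the members kept its sign under the alternatives run. At the named peaks, an overlap of 1 bp (214 differences) or the same interval only (142) could not change a value. The same interval was always taken first, then the largest overlap, and every member already had a match at 200 bp. Scaling shifts every ΔDL difference by -1.06 and every DBD difference by -0.42. The 107 of 214 that moved by more than 0.44 were therefore those of ΔDL. That limit is the SD over members of the log2 score difference between the KLF3 replicates. With a G+C limit of 0.65 there were 1823 members, of which 1777 held a core, 1822 were at least 2-fold lower for DBD, 281 were called in both ΔDL and 4 in both DBD replicates, the median ΔDL difference was -1.08, and 1 was at least 2-fold higher for ΔDL. With a limit of 0.55, 19 were called in both DBD replicates. With heights scaled to equal medians over shared peaks, ΔDL was at least 2-fold lower at 2731 and higher at 0, and the medians were -1.97 for ΔDL and -3.63 for DBD. A 4-fold limit left 232 lower and 0 higher for ΔDL. On the same interval only, 1 was higher. In the upper 50% by KLF3 score, 693 were lower for ΔDL and 1443 for DBD, 1419 held a core and the DBD median was -3.45. These smaller counts follow in part from fewer peaks or a stricter limit. Leaving out 1 replicate left 544 to 1968 members called for ΔDL and 38 to 48 for DBD.

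The replicate number as a block was tried although the 2 pairs share only a number. With it limma called 2580 peaks for ΔDL against KLF3, 113 lower and 2467 higher, 71 of them members (66 lower and 5 higher), and 43 for DBD. Deviations of samples with the same number correlated at 0.39 for ΔDL and -0.01 for DBD. With centred scores it called 440 for ΔDL, 183 of them members, and 86 for DBD. Leaving out 1 replicate gave 0 to 1828 calls for ΔDL (0 to 3 members), the highest without ΔDL replicate 2, where 1826 were higher. For DBD it gave 0 to 1092 (0 to 11 members), the highest without KLF3 replicate 1, where 65 were lower and 1027 higher, and 96 without KLF3 replicate 2. The median score difference was from -0.67 to 0.07 at the members for ΔDL, above 0 without ΔDL replicate 2. Over all peaks tested for DBD it was 0.24, and it was -0.04 with centred scores and -0.32 without KLF3 replicate 2. The lone replicate is then assumed to vary like the others. The cause was not tested. A planned overlap of 200 bp between peak lists was not run, since replicate peaks are narrower than that; one of 100 bp, chosen after seeing the data, left 479 called in both replicates of ΔDL and 12 in both of DBD. Depth was not equalized between lists, and its part in the calls of ΔDL replicate 1, with 1.77 M tags behind its scores, was not tested.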
